A study of Mus musculus with 8 samples.

Results

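Neutrophils carry their weapons in granules that are filled in a set order while the cell matures in the bone marrow. Primary (azurophil) granules receive myeloperoxidase and the serine proteases elastase and proteinase 3 at the promyelocyte stage, secondary (specific) granules receive lactoferrin, cathelicidin and lipocalin 2 at the myelocyte and metamyelocyte stages, and tertiary granules follow. The transcripts are lost as the cells mature, while the proteins stay in the granules, so granule messages are used as marks of maturation.

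The 10 genes described here are the granule and maturation genes Camp, Ngp, Ltf, Lcn2, Elane, Mpo, Prtn3, Cd177, Olfm4 and Retnlg, chosen by name among the 32285 genes of a single-cell table from mouse lung. All 10 were found in the table. The study sorted endothelial, epithelial and immune cells from the lungs of wild-type C57BL6/J pups aged 5 days, all exposed to antenatal LPS at gestation day 14, and kept from birth in 65% O2 (Hyperoxia, a model of bronchopulmonary dysplasia, 4 libraries) or in 21% O2 (Air, 4 libraries). The lungs had been frozen in DMSO and serum and thawed before the sort, and no pups without LPS are among the labels, so every value comes from cells of LPS-exposed, frozen and sorted lungs.

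The table held 11806 cells with 1055 to 39865 UMIs (unique molecular identifiers, each counting 1 captured transcript) and a median of 4425. Its column names carry a barcode and 1 of 7 suffixes, none of which equals a library label, and the barcodes restart alphabetically into 8 runs with 2574027 to 17841702 UMIs each. The cells were therefore treated as 1 pooled sample, Hyperoxia and Air were not compared, no p-value is given, and a run is an unlabelled stretch of columns that may or may not be a library. Across runs, 12 barcodes were found in more than 1 run, 1 of them in 6 runs. Intervals below are 95% intervals (exact Poisson for levels, exact Clopper-Pearson for shares) and cover counting error only.

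Neutrophils were the cells in which S100a8 and S100a9 made up at least 1% of UMIs and that held at least 1 UMI of the receptors Csf3r, Il1r2 or Cxcr2; none of the 10 genes enters that rule. The rule was met by 586 cells, of which 503 met no other class rule and are called neutrophils here (4.26% of all cells, median 4811 UMIs). The other classes were 373 classical monocytes, 2458 nonclassical monocytes, 913 alveolar macrophages, 721 alveolar type 2 (AT2) epithelial cells and 689 T cells, each defined by 1 or 2 genes, while 287 cells met 2 or more rules and 5862 met none. The neutrophil label held against 6 markers outside the rule, Mmp9, Clec4d, Mxd1, G0s2, Hdc and Trem1. They summed to 3934 counts per 1000000 UMIs of the class (CPM) in neutrophils. The sums were 427 CPM in nonclassical monocytes, 346 CPM in classical monocytes and 79.4 CPM in T cells. Markers of nonclassical monocytes summed to 776 CPM in neutrophils, against 1432 CPM in nonclassical and 432 CPM in classical monocytes. The nonclassical class may be less pure. The endothelial markers Pecam1 and Cdh5 summed to 238 CPM there, against 15.0 CPM in neutrophils. Pecam1 also stood at 152 CPM in T cells, while Cdh5 alone stood at 109 CPM in nonclassical monocytes and 2.23 CPM in neutrophils. One of the genes that define the class, Ace, is also made by endothelium, and its part in these values was not tested.

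Camp, Ngp and Ltf, the secondary granule genes whose messages moved most closely together below, lie on chromosome 9 of mm10, Camp at chr9:109847379-109849617 on the minus strand, Ngp at chr9:110419747-110423012 and Ltf at chr9:111019271-111042767 on the plus strand. Gaps of 570130 and 596259 bases separate them in that order. Their promoters and that of Retnlg (gene at chr16:48872621-48874496, plus strand) are shown because these 4 genes, with Lcn2, stood highest of the 10 in neutrophils. Each window runs from 250 bases before to 50 bases after the RefSeq start site on GRCm38.p6, written 5′ to 3′ on the gene's strand, with capitals marking a C/EBP motif (TTNNGCAA) or a PU.1 motif (GAGGAA) on either strand. C/EBP factors and PU.1 are the myeloid regulators of granule genes.
Camp promoter, chr9:109849407-109849706, minus strand: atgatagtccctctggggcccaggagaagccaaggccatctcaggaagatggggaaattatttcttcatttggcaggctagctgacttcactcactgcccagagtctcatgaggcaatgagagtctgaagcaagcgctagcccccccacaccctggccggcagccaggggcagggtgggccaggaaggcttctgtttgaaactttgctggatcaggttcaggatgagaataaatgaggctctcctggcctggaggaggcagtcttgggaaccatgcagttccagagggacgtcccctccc
Ngp promoter, chr9:110419558-110419857, plus strand: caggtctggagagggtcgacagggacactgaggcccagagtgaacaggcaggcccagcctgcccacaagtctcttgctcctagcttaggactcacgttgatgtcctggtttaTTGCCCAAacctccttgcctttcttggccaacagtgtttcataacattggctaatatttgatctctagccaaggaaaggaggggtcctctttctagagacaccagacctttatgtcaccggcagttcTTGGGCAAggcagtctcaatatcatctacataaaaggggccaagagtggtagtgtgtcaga
Ltf promoter, chr9:111019042-111019341, plus strand: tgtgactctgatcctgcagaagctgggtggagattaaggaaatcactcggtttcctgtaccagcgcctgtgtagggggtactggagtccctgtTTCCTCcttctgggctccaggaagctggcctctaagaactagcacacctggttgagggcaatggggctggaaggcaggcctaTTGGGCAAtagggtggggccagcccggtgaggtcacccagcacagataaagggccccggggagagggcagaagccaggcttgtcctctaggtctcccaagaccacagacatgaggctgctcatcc
Retnlg promoter, chr16:48872358-48872657, plus strand: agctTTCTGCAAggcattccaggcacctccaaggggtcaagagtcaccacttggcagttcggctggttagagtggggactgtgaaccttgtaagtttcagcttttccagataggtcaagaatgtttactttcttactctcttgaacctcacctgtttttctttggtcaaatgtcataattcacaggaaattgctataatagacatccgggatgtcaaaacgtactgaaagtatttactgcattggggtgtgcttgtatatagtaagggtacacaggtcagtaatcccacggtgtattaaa
The Ngp window held 2 C/EBP matches, at -138 and -11 from the start site, the Ltf window 1 at -75 and the Retnlg window 1 at -246. The Camp window held neither motif. Over all 10 genes, 4 windows held the C/EBP motif (the fourth is Lcn2), against 10.8% of 32851 promoters of the same length, and 7 held the PU.1 motif, against 28.3%. No match overlapped another, and these are letter matches, not binding sites.

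Camp, Ngp and Ltf were found mostly in neutrophils. The wider secondary granule list was not: Lyz2, Cybb and Cyba, which macrophages and monocytes also make, stood at 5431, 652 and 1587 CPM in neutrophils, against 12936, 1075 and 1873 CPM in classical monocytes. Camp, which encodes the cathelicidin antimicrobial peptide, reached 4132 CPM (4062 to 4204) in neutrophils, against 14.8 CPM in all other cells, a 278-fold difference. Ngp, neutrophilic granule protein, a relative of cathelicidin, reached 5472 CPM in neutrophils and 17.9 CPM elsewhere (306-fold). Ltf, the iron-binding lactoferrin, reached 2597 CPM in neutrophils and 7.32 CPM elsewhere (355-fold). Of the 41186 UMIs of these 3 genes in the table, 92.8% lay in the 503 neutrophils.

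Retnlg, a secreted resistin-like protein of bone marrow and neutrophils, had the highest fold of all 13959 genes compared (720-fold, interval 658 to 791), at 4680 CPM in neutrophils and 6.50 CPM in all other cells. Olfm4, an olfactomedin of the secondary granule that is found in a subset of neutrophils in mice and humans, stood at 624 CPM in neutrophils and 2.87 CPM elsewhere (217-fold). Cd177, a surface and granule protein of neutrophils, stood at 317 CPM in neutrophils and 1.56 CPM elsewhere (204-fold). Averaged over cells instead of summed, the log2 ratios were 8.51 for Retnlg, against 9.49 summed, 7.26 for Ngp, against 8.26, 7.19 for Camp, against 8.12, and 6.98 for Olfm4, against 7.76. Without run 1 the log2 ratio of Olfm4 was 8.73, against 7.76 with it. By fold of summed counts, Ltf ranked 4, Ngp 7, Camp 8, Olfm4 12 and Cd177 14.

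Of the 8 genes with at least 100 UMIs in the table, 7 were at least 4-fold higher in neutrophils than in all other cells, where 2.05% of all genes compared were. Against classical monocytes alone the count was again 7 of 8, with 3.74% of genes at that fold. The exception in both was Prtn3. Camp was higher in neutrophils than in the other cells of the same run in 7 of 8 runs, Olfm4 in 6 of 8, and Ngp, Ltf, Lcn2, Cd177 and Retnlg in 8 of 8.

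**Figure D1:**
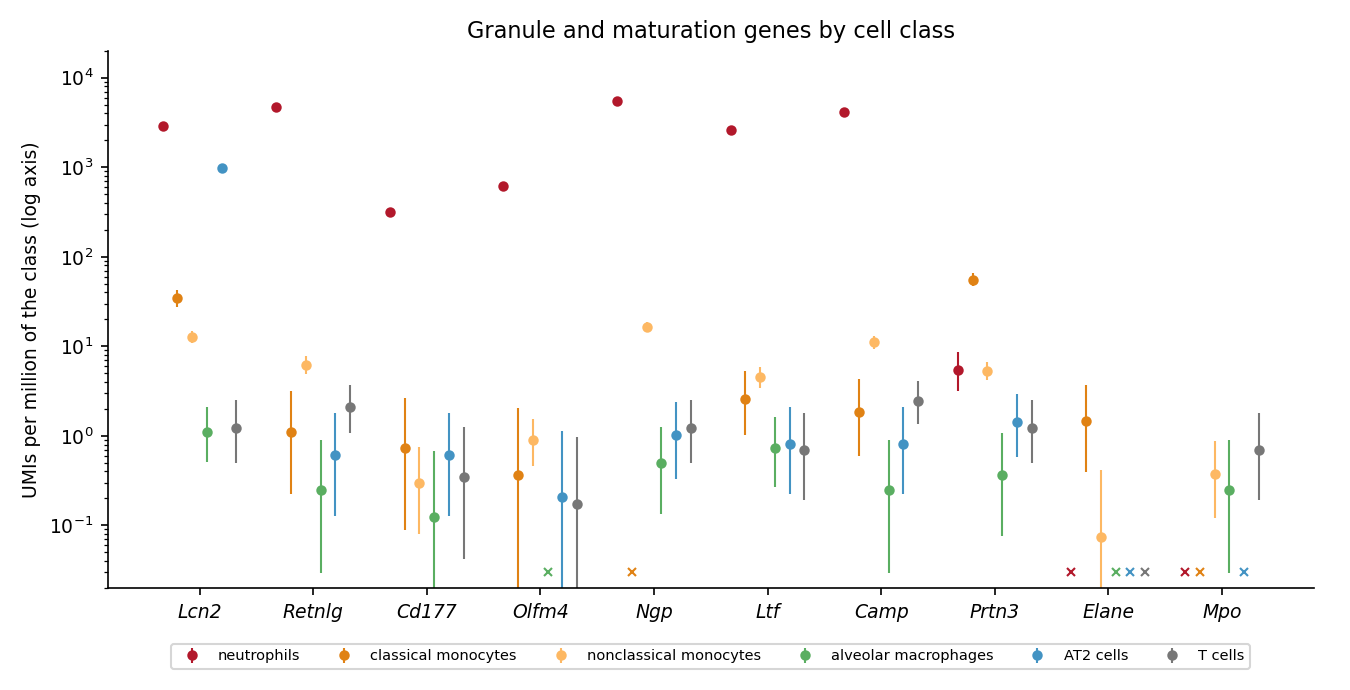
Level of each of the 10 genes in 6 cell classes, in CPM on a log axis, with exact Poisson 95% intervals; crosses at the foot mark a class with 0 UMIs. Neutrophils stand highest for 7 genes, AT2 cells come within 2.98-fold of them for Lcn2 alone, and classical monocytes lead for Prtn3.

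Lcn2, lipocalin 2, which binds bacterial siderophores and is also made by inflamed epithelium, was the one neutrophil-led gene with a second clear source. It stood at 2914 CPM in neutrophils, against 979 CPM in AT2 cells, a ratio of 2.98 (2.87 to 3.08), and at 34.4 CPM in classical monocytes and 1.23 CPM in T cells. By share of cells the order turned: 57.5% of neutrophils (53.0 to 61.8%) held a Lcn2 UMI, against 65.5% of AT2 cells (61.9 to 68.9%). After each cell was thinned to 2000 UMIs 52.6% of 458 neutrophils held the gene, against 311 of 622 AT2 cells, with 45 neutrophils and 99 AT2 cells too shallow to keep, and the intervals overlapped.

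The spread of Lcn2 among cells that held it differed. Neutrophils with the gene had a median of 6 UMIs and up to 564, and AT2 cells a median of 3 and up to 172. By run the neutrophil level ranged from 247 to 5634 CPM and the AT2 level from 272 to 1752 CPM. The neutrophils were below the AT2 cells in run 2 (247 against 272 CPM) and run 6 (1198 against 1565 CPM), and above them in the other 6 runs.

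The primary granule genes were all but missing from neutrophils. Elane, neutrophil elastase, had 0 UMIs in the 503 neutrophils and 13 in the whole table, and Mpo, myeloperoxidase, had 0 in neutrophils and 18 in the whole table. A count of 0 allows up to 0.957 CPM in neutrophils, or up to 0.596% of the cells holding a UMI, on 3 counts (the exact upper limits are 1.18 CPM and 0.731%); it sets no limit on cells that express the gene below detection. Of Elane, 4 UMIs lay in classical monocytes and 7 in cells of 2 or more rules. No class had more than 6 Mpo UMIs.

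Prtn3, proteinase 3, was higher in classical monocytes than in neutrophils. It stood at 5.43 CPM in neutrophils (17 UMIs), against 55.6 CPM in classical monocytes (152 UMIs), a neutrophil-to-monocyte ratio of 0.098 (0.055 to 0.162), and at 5.34 CPM in nonclassical monocytes. A Prtn3 UMI was held by 2.19% of neutrophils, 21.7% of classical monocytes and 0.871% of T cells. Without run 1 the neutrophil share was 0.490% and the log2 ratio to classical monocytes -4.25, against -3.36 with it. Thinned to 2000 UMIs the shares were 1.09% of neutrophils and 7.63% of classical monocytes. The neutrophil level was below that of classical monocytes in 8 of 8 runs, with 0 UMIs in the neutrophils of 6 of them, and the monocytes themselves ranged from 17.2 to 95.5 CPM by run. In runs 3, 4 and 5, with 14, 7 and 4 neutrophils, a count of 0 allows up to 83.4, 172 and 325 CPM. The monocyte levels there, 27.9, 42.9 and 17.2 CPM, lay below these limits, so those runs could not show a difference beyond counting error.

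Against all other cells together Prtn3 in neutrophils did not differ beyond counting error (ratio 0.808, interval 0.467 to 1.31; log2 ratio -0.31, and -0.997 without run 1). Its direction there rests on how cells of several rules are handled. When the 59 cells that met both the neutrophil and the classical monocyte rule, and the other neutrophil-rule cells of several rules, were counted as neutrophils, the log2 ratio was 1.94, against -0.31 without them. Prtn3 also overlaps Plppr3 on the opposite strand (54 UMIs in the table), and with strand use not given in the sources used here, reads shared between the pair cannot be told apart.

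Cells with at least 3 UMIs of Elane, Mpo and Prtn3 summed numbered 47. Most of these UMIs were of Prtn3, held by 46 of the cells (205 UMIs), against 9 with Elane (10 UMIs) and 3 with Mpo (5 UMIs). The 47 cells comprised 1 neutrophil, 15 classical monocytes, 8 nonclassical monocytes, 1 alveolar macrophage, 14 cells of 2 or more rules (all 14 meeting the classical monocyte rule) and 8 cells of no rule. Ly6c2, a surface protein of classical monocytes, was found in 41 of the 47 and Irf8, a monocyte regulator, in 37. Ly6c2 is part of the classical monocyte rule, which 29 of the 47 met, so its presence in those 29 was fixed by the rule. Camp, Cxcr2 and the progenitor receptor Kit had 0 UMIs in the 47, Ngp had 1 and Ltf 4. A UMI of the receptors used by the neutrophil rule was held by 35 of the 47, Csf3r by 29 and Il1r2 by 20. Their median depth was 17909 UMIs, and 32 of them lay in run 1, so depth and run moved with this count; their part in it was not tested. The other primary granule genes of the list were scarce and did not share the Prtn3 pattern. Of Prss57, a serine protease of these granules, 15 of 39 UMIs lay in neutrophils and 0 in classical monocytes, and of Ms4a3, a gene of granulocyte and monocyte progenitors, 7 of 12 and 0. Ctsg, cathepsin G, had 1 UMI in the whole table.

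The 7 genes present in at least 10% of neutrophils fell into an order by breadth. Lcn2 was held by 57.5% of neutrophils, Retnlg by 39.8% (35.5 to 44.2%), Cd177 by 33.8%, Olfm4 by 31.8%, Ngp by 25.6%, Ltf by 24.1% and Camp by 23.1% (19.4 to 27.0%). Counting error separates Lcn2 from Retnlg and Retnlg from Ngp, Ltf and Camp, but not Cd177 from Olfm4, nor Ngp, Ltf and Camp from each other. Thinned to 2000 UMIs, with 45 shallower neutrophils left out, the shares were 52.6% for Lcn2, 36.0% for Retnlg, 26.2% for Olfm4, 24.2% for Cd177, 22.7% for Ngp, 21.8% for Ltf and 21.0% for Camp, so Cd177 and Olfm4 changed places. Without run 1 they did so as well, and so did Ltf and Camp.

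These shares were above those in T cells, which should lack these genes. T cells, with a median of 5459 UMIs, held Camp in 1.31%, Ngp in 1.02%, Ltf in 0.581%, Lcn2 in 0.871%, Cd177 in 0.290%, Olfm4 in 0.145% and Retnlg in 1.45%. In run 1, where 19.0% of cells were neutrophils, the T cell shares were higher, at 6.25% for Ngp and 7.29% for Retnlg, against 27.8% and 40.8% of the neutrophils of that run. For Prtn3 the shares of 2.19% in neutrophils (11 cells) and 0.871% in T cells (6 cells) had overlapping intervals.

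The narrowest genes were the most abundant where they were present. Where present, Lcn2 had a median of 6 UMIs per neutrophil, Cd177 and Olfm4 3 each and Retnlg 18, while the narrower Camp had 32.5, Ltf 33 and Ngp 57. The 50 neutrophils richest in each gene held 93.4% of its UMIs for Camp, 90.0% for Ngp, 89.1% for Ltf and 83.1% for Retnlg, but 76.9% for Lcn2 and 74.3% for Cd177. The high class levels of the secondary granule genes thus came from a minority of the neutrophils, up to 1007 UMIs of Ngp in 1 cell.

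Lcn2, Retnlg, Cd177, Ngp, Ltf and Camp were each found more often in neutrophils that held another of the 6 than in those without it. Of the 116 neutrophils with Camp, 93.1% (86.9 to 97.0%) also held Lcn2, against 46.8% of the 387 without Camp. In the other direction, where the breadth of Lcn2 sets a lower ceiling, 37.4% of the 289 neutrophils with Lcn2 held Camp, against 3.74% of the 214 without Lcn2. Of the neutrophils with Ngp, 93.0% held Lcn2, 84.5% Retnlg and 82.2% Cd177, against 45.2%, 24.3% and 17.1% of those without Ngp. Among the narrow genes themselves, 88.8% of neutrophils with Camp held Ngp and 79.8% of those with Ngp held Camp, against 6.72% and 3.48% of the neutrophils without the first gene.

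Of the 21 pairs of the 7 genes, the broader gene was found in at least 90% of the neutrophils with the narrower in 2 pairs and in at least 50% in 17. The 15 pairs that leave out Olfm4 ranged from 67.6% (Retnlg given Cd177) to 93.1% (Lcn2 given Camp). Which gene of a pair has the higher share follows from breadth alone, so the order of co-detection is the order of breadth, and at the 90% mark only Camp and Ngp lay within Lcn2. The other pairs were partial, with Lcn2 in 79.0% of the neutrophils with Retnlg. Within run 1 and within the other runs the share of Lcn2 given Camp was 93.0% and 93.3%, and that of Ngp given Camp 90.1% and 86.7%.

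Before thinning, the trio was found about as often in neutrophils with Olfm4 as in those without it. Ngp was found in 28.8% of neutrophils with Olfm4 (21.9 to 36.4%), against 24.2% of those without it, and Camp in 24.4% against 22.4%, with overlapping intervals. Ltf was found in 22.5% of neutrophils with Olfm4, against 24.8% of those without. After thinning, each gene of the trio was found more often in neutrophils with Olfm4 than in those without it. The thinned shares were 29.2% against 18.0% for Camp, 30.0% against 20.1% for Ngp and 27.5% against 19.8% for Ltf. No interval is given for these thinned shares. Retnlg was found in 50.6% of neutrophils with Olfm4, against 34.7% of those without, and Cd177 in 45.0% against 28.6%. For Cd177 this was 55.3% against 31.7% in run 1, but 30.3% against 23.9% in the other runs, and 30.8% against 21.9% after thinning. Olfm4 was the only one of the 7 found in 26 neutrophils, 16.2% of its cells, while Camp was so in 4 and Ngp in 3. Olfm4 overlaps the long noncoding gene Gm6999 on the same strand (40 UMIs in the table), and counting could have split reads between them.

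**Figure D2:**
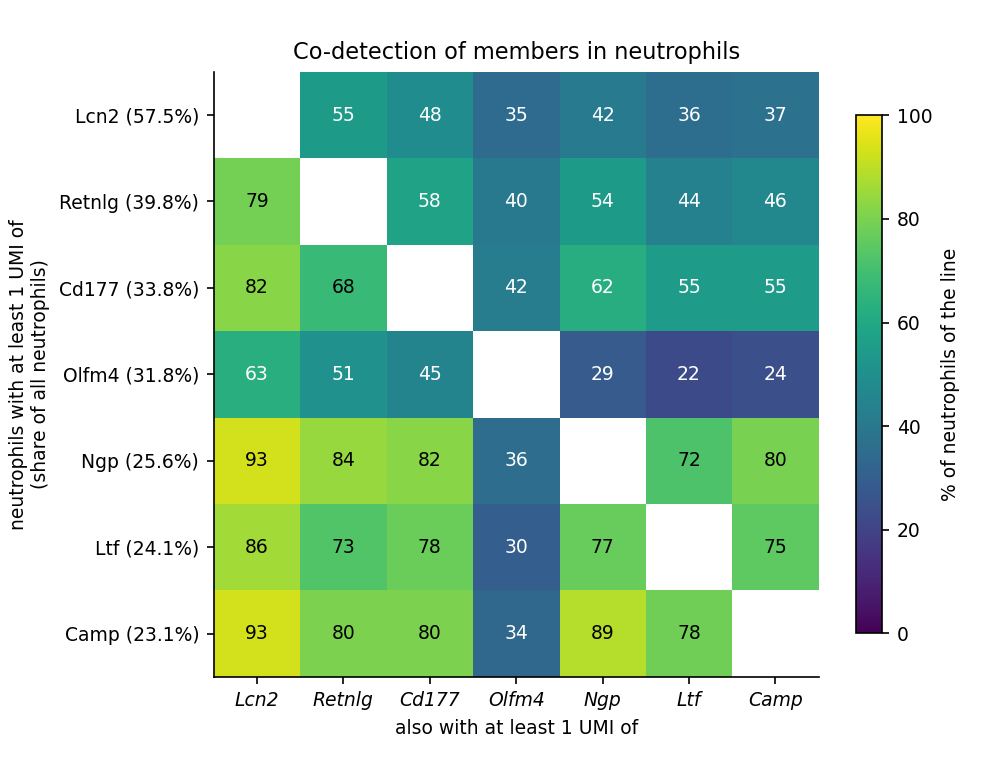
Co-detection among the 7 genes held by at least 10% of the 503 neutrophils: each square gives the percentage of neutrophils with the gene of its line that also held the gene of its column, ordered by breadth. The lower left, where the broader gene is asked of cells with the narrower, is high at 67.6% to 93.1% outside Olfm4, and the Olfm4 column is low at 29.8% to 42.4%.

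Neutrophils held either few or most of the 7 genes. None was found in 104 neutrophils, 1 in 123, 2 in 102 and 3 in 55, and only 16 held 4 and 16 held 5. Numbers climbed again to 60 neutrophils with 6 genes and 27 with 7. The set of 6 that lacks Olfm4 alone was held by 52 cells, the third commonest set after none (104) and Lcn2 alone (55). Among neutrophils with 1 gene, that gene was Lcn2 in 44.7%, Olfm4 in 21.1%, Retnlg in 16.3% and Ltf in 7.32%.

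**Figure D3:**
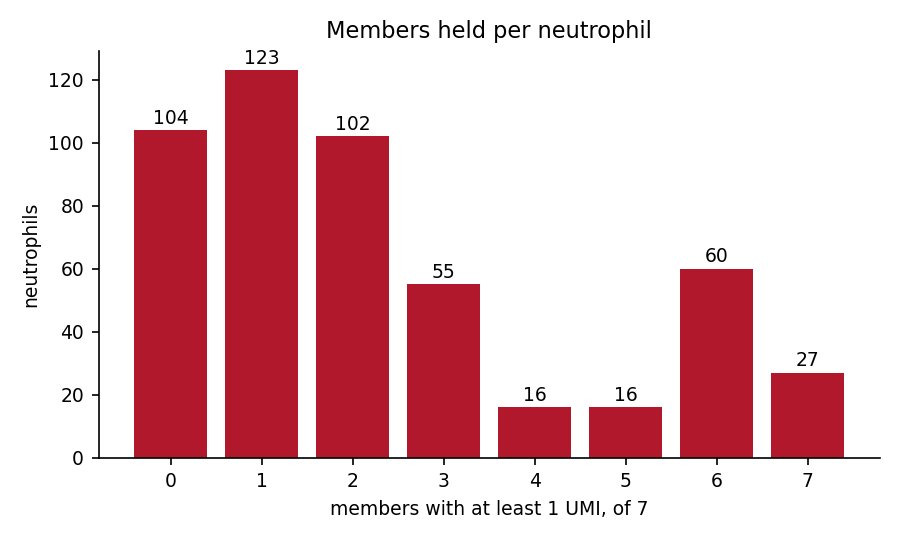
Number of neutrophils (vertical axis) by how many of Lcn2, Retnlg, Cd177, Olfm4, Ngp, Ltf and Camp they held at 1 UMI or more (horizontal axis). The counts peak at 123 cells with 1 gene and again at 60 cells with 6, with 16 cells each at 4 and 5.

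Across the 503 neutrophils, correlations of depth-scaled log counts describe the same grouping. All points share the depth of their cell, and r is a description over cells of 1 pooled sample. Camp was most like Ngp (r = 0.96), then Ltf (0.92) and Itgb2l (0.77), an integrin gene, among 5136 genes found in at least 10% of neutrophils. Cd177 was most like Ltf (0.78) and Lcn2 most like Ngp (0.74). Retnlg had other neighbours, Mmp8 (0.74), the collagenase of secondary granules, Stfa2 (0.72), a cystatin, and Slc2a3 (0.66), a glucose transporter. For Olfm4 the highest r was 0.30, with Adpgk. Camp with Ngp stood at 0.96 in run 1 and 0.96 in the other runs.

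Retnlg and the Camp, Ngp and Ltf trio overlapped in part. Of the 503 neutrophils, 114 held Retnlg and at least 1 of the trio, 55 the trio without Retnlg, 86 Retnlg without the trio, and 248 neither. Lcn2 was found in 95.6% of the cells with both, 50.9% of those with the trio alone, 57.0% of those with Retnlg alone and 41.5% of those with neither. Cd177 was found in 85.1%, 30.9%, 20.9% and 15.3% of the same sets. Cells with both were deeper, with a median of 7831 UMIs, against 4527 to 4711 UMIs in the other sets, and the part of depth in these shares was not tested.

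Sorted by the trio, 334 neutrophils held none of Camp, Ngp and Ltf, 62 held 1, 17 held 2 and 90 held all 3. The 90 cells had a median of 7938 UMIs, against 4577 UMIs in the 334. In the 90 cells Ngp made up 18125 CPM and Camp 13735 CPM. With 1 of the trio the levels were 93.0 CPM for Ngp and 39.4 CPM for Camp, and the 62 cells of that set held 33 and 14 UMIs of these genes in all. Lcn2 stood at 525 CPM with none, 1147 CPM with 1, 2992 CPM with 2 and 7916 CPM with all 3, and Cd177 at 57.3, 95.8, 194 and 891 CPM in the same order. Retnlg did not follow this order by level, at 1165 CPM with none, 5945 CPM with 1, 17729 CPM with 2 and 8805 CPM with all 3, but did by share of cells, at 25.7%, 32.3%, 70.6% and 91.1%. Its level with 2 of the trio rests on the 17 cells of that set.

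The 90 neutrophils with all 3 were set against the 334 with none across the 3514 genes with at least 100 UMIs in both sets together. The median gene was lower in the 90 cells by 0.82 on the log2 scale. CPM shares a fixed total, of which S100a8 and S100a9 alone took 108227 and 118561 CPM in the 90 cells, against 45103 and 32517 CPM in the 334. At least 2-fold higher were 5.21% of genes and at least 2-fold lower 42.5%. Relative to that median 14.0% were at least 2-fold higher and 13.7% at least 2-fold lower.

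Most other secondary granule genes were higher in the cells with all 3. Of the 10 genes of that list counted outside the trio, 7 were at least 2-fold higher in the cells with all 3 and 0 at least 2-fold lower. The shares of all genes were 5.21% and 42.5%. The list median was 2.75 on the log2 scale, against -0.82 for all genes. Relative to the median of all genes the counts were 8 higher and 0 lower, beside 14.0% and 13.7% of all genes. Lcn2 was 15.1-fold and Cd177 15.5-fold higher, and Olfm4 6.31-fold by level, although it was held by 34.4% of the cells with all 3 and 32.3% of those with none. Mmp8, neutrophil collagenase, stood at 1620 CPM with all 3, against 190 CPM with none, and Chil3, a chitinase-like protein, at 489 against 42.1 CPM. By class, Chil3 was higher in alveolar macrophages (434 CPM) than in neutrophils (184 CPM). Lyz2, lysozyme, the gene of the list highest in neutrophils after Ngp, was nearly level at 5890 CPM with all 3 and 5207 CPM with none. Cebpe, the C/EBP factor needed for secondary granules in mice, stood at 184 CPM with all 3 and 61.4 CPM with none.

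Tertiary granule and late maturation genes went the same way, 6 of 10 at least 2-fold higher and 1 at least 2-fold lower, beside 5.21% and 42.5% of all genes. Their median was 1.87 on the log2 scale. Relative to the median of all genes 8 were higher and 0 lower, beside 14.0% and 13.7% of all genes. Retnlg was 7.56-fold higher. Anxa1, annexin A1, stood at 3163 CPM with all 3, against 460 CPM with none, and Mmp9, the gelatinase that names these granules, at 1180 against 384 CPM. Padi4, which citrullinates histones, stood at 195 against 37.4 CPM.

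The genes of mature neutrophils did not move as one. Of 16, 1 was at least 2-fold higher and 5 at least 2-fold lower, beside 5.21% and 42.5% of all genes. Relative to the median of all genes 5 were higher and 5 lower, beside 14.0% and 13.7% of all genes. Stfa2l1, one of several near-identical cystatin genes among which counting may split reads, stood at 10835 CPM in cells with all 3, against 4498 CPM with none. Il1b, the inflammatory cytokine interleukin 1 beta, was lowest by ratio, at 267 CPM with all 3, against 3610 CPM with none, 13.5-fold lower where the median gene was 1.77-fold lower. Ptgs2, the prostaglandin enzyme COX-2, stood at 42.6 against 316 CPM, and Ccl6, a chemokine, at 118 against 607 CPM. Csf3r, the G-CSF receptor, stood at 213 against 1004 CPM. The rule receptors Csf3r, Il1r2 and Cxcr2 are among the 16, and Csf3r is 1 of the 5 lower genes. Values of these receptors and of the S100 genes, all part of the neutrophil rule, are a description of the cells the rule kept.

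Among neutrophil transcription factors, 1 of the 6 counted was at least 2-fold higher and 2 at least 2-fold lower, beside 5.21% and 42.5% of all genes. The counts relative to the median were again 1 and 2, beside 14.0% and 13.7% of all genes. The higher gene is Cebpe, which is also counted in the secondary granule list. Junb stood at 867 CPM with all 3, against 3211 CPM with none, and Cebpb, the C/EBP factor of emergency granulopoiesis in mice, at 485 against 2240 CPM. Cell cycle genes were scarce in both sets: 2 of 10 had enough UMIs to be counted, Hmgb2 at 1245 CPM with all 3 and 802 CPM with none, and Tubb5 at 41.5 against 118 CPM. Below the count minimum, Mki67 stood at 28.7 CPM (27 UMIs) with all 3, against 11.7 CPM (20 UMIs) with none. Top2a stood at 33.0 against 4.68 CPM (31 and 8 UMIs), Stmn1 at 29.8 against 9.36 CPM (28 and 16) and Pclaf at 17.0 against 1.17 CPM (16 and 2). The ratio was 2.22 for Ube2c (0.838 to 6.07), 2.91 for Birc5 (0.840 to 11.3), 1.21 for Cdk1 (0.252 to 5.11) and 2.86 for Ccnb2 (1.01 to 8.70). Each of these rests on at most 11 UMIs in either set.

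The counts were also made within run 1 (54 cells with all 3, 188 with none) and within the other runs together (36 and 146 cells). Secondary granule genes at least 2-fold higher were 7 of 10 in both, tertiary ones 7 and 5 of 10, and mature neutrophil genes at least 2-fold lower 5 and 8 of 16. The 16 include the rule receptors Csf3r, Il1r2 and Cxcr2. Of all genes, 5.83% in run 1 and 5.07% in the other runs were at least 2-fold higher, and 41.3% and 45.3% at least 2-fold lower, so the counts of lower mature genes lay near or below those of all genes. In run 1 Il1b stood at 318 against 3705 CPM and Mmp8 at 1626 against 206 CPM, and in the other runs Il1b stood at 118 against 3441 CPM and Mmp8 at 1602 against 160 CPM. Markers of monocytes were lower in the cells with all 3. The 4 classical monocyte markers, all found in both, summed to 42.6 CPM in cells with all 3, against 228 CPM with none. The 4 nonclassical markers summed to 313 against 1005 CPM. Over all neutrophils, Nr4a1 alone held 1870 of the 2432 UMIs of these nonclassical markers. Alveolar macrophage markers went the other way, at 497 against 181 CPM, with Chil3 holding 460 of their 467 UMIs in cells with all 3. The 6 neutrophil markers summed to 3942 CPM with all 3 and 3621 CPM with none. The part of monocyte RNA in the lower genes was not tested.

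**Figure D4:**
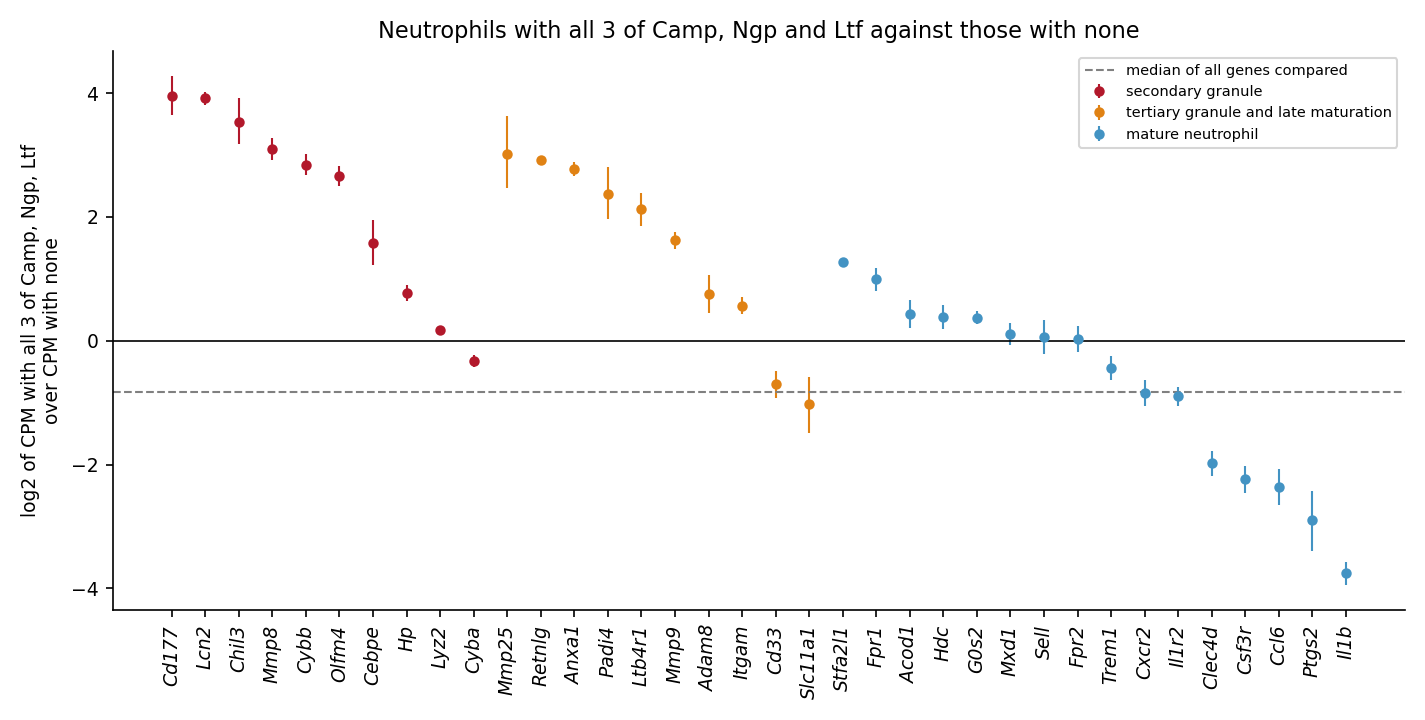
Log2 ratio of CPM in the 90 neutrophils with all of Camp, Ngp and Ltf over CPM in the 334 with none, for the counted genes of the secondary granule, tertiary granule and mature neutrophil lists, with exact 95% intervals for counting error; the dashed line is the median of all genes compared, -0.82. Secondary and tertiary granule genes lie mostly above 0, and Il1b lies lowest, with a ratio of 0.074.

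Runs differed in how many neutrophils they held and in what these carried. Run 1 held 299 of the 503 neutrophils (59.4%), and the others 20, 14, 7, 4, 87, 41 and 31 in order. Over the 5 runs with at least 20 neutrophils, Camp ranged from 0 to 9617 CPM with a median of 4039 CPM, Ngp from 19.0 to 10664 CPM, Ltf from 9.49 to 4853 CPM and Lcn2 from 247 to 4853 CPM. Retnlg ranged from 517 to 5419 CPM and Olfm4 from 523 to 1700 CPM.

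In run 2 (20 neutrophils) the trio was near 0, with Camp at 0 CPM, Ngp at 19.0 CPM and Ltf at 9.49 CPM, while Retnlg at 4146 CPM and Olfm4 at 835 CPM were not. Run 6 (87 neutrophils) had the lowest Retnlg, at 517 CPM in 18.4% of its neutrophils, beside Camp at 2801 CPM in 12.6%. By level the lowest run was thus run 2 for the trio and run 6 for Retnlg. Runs 1, 7 and 8 held both, with Retnlg at 5419, 4431 and 4140 CPM and Ngp at 5616, 10664 and 7818 CPM. A relation between Retnlg and the trio over runs was not tested. The levels in runs 2 and 6 rest on few cells, and no run carries a label of oxygen.

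**Figure D5:**
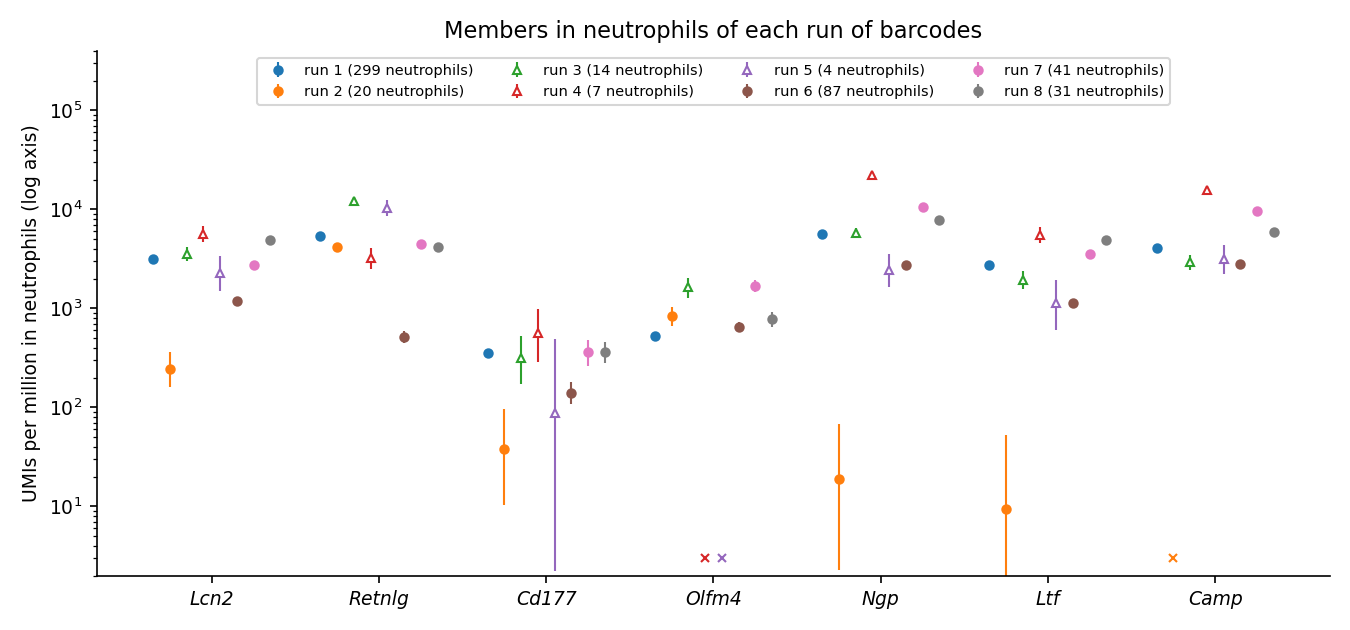
Level of the 7 genes in the neutrophils of each run of barcodes, in CPM on a log axis with exact Poisson 95% intervals; open triangles are runs with fewer than 20 neutrophils, and crosses at the foot mark 0 UMIs. Run 2 is lowest for Ngp, Ltf, Camp, Lcn2 and Cd177, and run 6 is lowest for Retnlg at 517 CPM.

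The 2 edges of the neutrophil rule differed. At the S100 edge, the 69 neutrophils with 1 to 2% of UMIs in S100a8 and S100a9 had Ngp at 219 CPM and Retnlg at 219 CPM, and the 114 cells just outside, with 0.5 to 1% and a receptor UMI, had Ngp at 12.4 CPM and Retnlg at 49.4 CPM. At the receptor edge, the 40 neutrophils with exactly 1 receptor UMI had Ngp at 6189 CPM, Camp at 6046 CPM and Retnlg at 657 CPM, and the 76 cells just outside, with at least 1% in S100a8 and S100a9 and no receptor UMI, had Ngp at 2603 CPM, Camp at 1737 CPM and Retnlg at 539 CPM. Outside the neutrophils, 13 cells with at least 10 UMIs of the trio held 85.7% of the 2958 trio UMIs found there. Of these 13 cells, 8 had no receptor UMI and 3.87% to 36.0% of their UMIs in S100a8 and S100a9, so they failed the rule on the receptor alone.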

How the data were processed

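The authors deposited 1 table of raw UMI counts per gene and cell, made with Cell Ranger 1.3.1 on mm10 per the submitters' processing notes; the version is given as those notes state it. The labels' protocols give 10x 3' single-cell chemistry; how strand was used is not given in the sources used here. With 3' tags, a count reflects transcripts caught at their end, so levels of different genes are compared only as CPM of 1 library chemistry.

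From these counts, UMIs were summed per class, scaled to CPM and compared as ratios with exact conditional binomial intervals (Python 3.11.15, numpy 2.4.6, scipy 1.17.1, matplotlib 3.10.9); a gene needed at least 100 UMIs in the cells compared. The ratio calculation was tested on simulated data. Class rules were at least 2 UMIs of F13a1 and 1 of Ly6c2 (classical monocytes), 2 of Ace and Adgre4 (nonclassical), 2 of Ear1 and Marco (alveolar macrophages), 3% Sftpc (AT2) and 2 of Cd3e and Trac (T cells). Likeness used the natural log of 1 plus UMIs per 10000. A planned edgeR test of Hyperoxia against Air was not run, as no cell could be assigned to a library. No cells were removed as doublets: Scrublet in scanpy 1.11.5, run within each run of barcodes, marked 68 cells (0.576%), and an alternative removed the 193 highest scores.

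The members and gene lists were chosen with earlier results of these data known. The text names all 10 members, the 2 genes of each list highest in neutrophils and the genes most alike each member over neutrophils. Chosen after their values were seen were Mmp8, Chil3, Cebpe, Padi4, Mmp9, Ptgs2, Ccl6, Csf3r, Cybb, Cyba, Ctsg, Ms4a3, Ly6c2, Irf8, Kit and Nr4a1. The same holds for Mki67, Top2a, Stmn1, Pclaf, Ube2c, Birc5, Cdk1 and Ccnb2.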

Additional observations from a re-analysis of the deposited data

How the results depend on the processing

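The count of 7 genes at least 4-fold higher in neutrophils was 7 under all 16 alternatives run. The number of neutrophils was 434 to 586 under the other class rules and 499 with likely doublets removed; leaving out 1 run at a time it was 204 to 499, the lowest without run 1. The order by breadth kept 8 of 8 places under the other class rules, 6 of 8 when cells were thinned to 2000 UMIs and 4 of 8 when 2 UMIs were asked for detection (Cd177 and Olfm4, and Ltf and Camp, changed places); leaving out 1 run at a time it kept 4 to 8 places, the lowest without run 1. Pairs with the broader gene in at least 90% of cells with the narrower numbered 2 of 21, 3 when thinned, 6 when 2 UMIs were asked for, and 2 to 4 leaving out 1 run at a time, the highest without run 1. The log2 ratio of Prtn3 in neutrophils over all other cells, -0.31, turned to 1.94 when cells of several rules took the first rule they met and to 0.18 when no receptor UMI was asked for, an alternative chosen after seeing the data. With 2 receptor UMIs asked for, the log2 ratios to all other cells were 7.14 for Camp, 7.42 for Ngp, 7.65 for Ltf and 7.05 for Cd177, and with none asked for 8.84 for Camp and 9.26 for Ngp. The comparison within run 1 and the other runs, and the scaling to the median of all genes, were also chosen after seeing the data. No paired analysis was possible because the columns carry no library or replicate. Elane and Mpo had too few UMIs, 13 and 18 in the table, for a ratio to be given.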
